A study of Mus musculus with 9 samples.

Results

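The genes of 2 neurotrophins (Bdnf and Ntf3), of 3 neurotrophin receptors (Ntrk2, Ntrk3 and Ngfr), of the transcription factor CREB and its coactivator (Creb1 and Crtc1) and of the neurotrophin-induced peptide precursor Vgf were examined in mouse hippocampus. Members were the array features outside the control set whose annotated gene name is one of these 8. They were 8 of 31093 gene names and 14 of 39429 probes, and all 14 probes passed the filter on dim probes, which 27993 probes in all passed. Each gene was described by its brightest probe and then by every other probe it has. None of the 8 genes passed the thresholds for differential expression between any pair of genotypes on its brightest probe.

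The study asked how the dose of IF1, the physiological inhibitor of the mitochondrial ATP synthase, affects neurons, and the arrays compare hippocampal transcripts of 3 genotypes. IF1-KO mice lack exon 3 of Atp5if1 (Atpif1 on the array), deleted from a floxed allele by a Cre under the Camk2a promoter, which acts mostly in excitatory neurons of the forebrain. IF1-TG mice carry human IF1 under a tetracycline operator, driven by a transactivator (tTA) under the Camk2a promoter. Control mice are labelled CRL, and whether the controls hybridized here carried Cre, tTA or the floxed allele is not given in the sources used here. All 9 mice were male C57BL/6J according to the labels, 9 months old, with 1 one-colour array per mouse and 3 mice per genotype. Glia, interneurons and cells of other tissue kept their own Atpif1 in both models, and the RNA came from whole hippocampus. In such bulk RNA, fewer cells of a type and less RNA per cell cannot be told apart.

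Neurotrophins are small secreted growth factors that keep neurons alive during development and tune synapses in the adult. Brain-derived neurotrophic factor (Bdnf) binds the receptor tyrosine kinase TrkB (Ntrk2), neurotrophin-3 (Ntf3) binds mainly TrkC (Ntrk3), and the precursor forms bind the p75 receptor (Ngfr), which has no kinase. Trk receptors signal through adaptor proteins to kinases that phosphorylate CREB, and CREB with coactivators of the Crtc family switches on activity-dependent genes, among them Bdnf itself. In the hippocampus this loop is known for its part in long-term potentiation and memory. Phosphorylation, secretion and protein levels are not measured by these arrays, only transcripts.

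Each value is the log2 signal of a probe minus the 75th percentile of that array's signals, so a value of 0 is at that percentile, and levels of different probes are not compared as amounts of transcript. A difference was called when the fold change was at least 1.5 (0.58 on the log2 scale) and the unadjusted limma P value was below 0.05, the rule of the study's methods. Adjusted P values are those of limma after Benjamini-Hochberg adjustment over all kept probes of a comparison. There were 3 slides. Of the IF1-KO arrays, replicate 1 lay on slide 2 and the others on slide 3. Of the CRL arrays, replicate 3 lay on slide 3 and the others on slide 2. Of the IF1-TG arrays, replicate 3 lay on slide 2, and the others filled slide 1 by themselves. The share of spots well above background was 71.9% to 73.6% on the IF1-KO arrays, 73.0% to 75.6% on the CRL arrays and 67.4% to 70.4% on the IF1-TG arrays. Excitatory neuron markers were well above background on every array (5 of 5). The array labelled IF1-KO replicate 1 had an Atpif1 signal of 6.44, above the 6.19 to 6.34 of the CRL arrays and within the 6.39 to 6.51 of the IF1-TG arrays, whereas the other arrays labelled IF1-KO had 5.20 and 5.53. For this reason, differences of the 8 genes from IF1-KO mice are also given without that array where printed values moved by over 1.5 times or crossed a threshold.

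Several probes of the Trk receptor genes lie in different transcript forms, and 4 of them lie in coding sequence, so their 60-base sequences are shown to make clear which form each one reads. TrkB and TrkC are each made as a full-length receptor with a kinase and as truncated receptors without one. The Ntrk2 probe A_55_P2006792 (chr13:58979563-58979622, mm9, plus strand) covers the end of the membrane-spanning segment, which full-length and truncated TrkB share. The Ntrk3 probes A_55_P2056533 (chr7:85392044-85392103, minus strand) and A_66_P118329 (chr7:85337455-85337514, minus strand) cover the activation loop and the C-terminal end of the TrkC kinase. The Ntrk3 probe A_55_P2006808 (chr7:85447515-85447574, minus strand) covers the tail of truncated TrkC, and the capitals at its end mark the stop codon that closes this short form.
Ntrk2 A_55_P2006792: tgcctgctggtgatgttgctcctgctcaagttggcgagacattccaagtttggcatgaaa
Ntrk3 A_55_P2056533: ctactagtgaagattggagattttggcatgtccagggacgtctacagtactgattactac
Ntrk3 A_66_P118329: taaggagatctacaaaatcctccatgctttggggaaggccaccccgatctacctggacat
Ntrk3 A_55_P2006808: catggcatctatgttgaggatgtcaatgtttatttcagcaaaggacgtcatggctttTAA

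Both ligand genes were measured by a single probe each. Bdnf (A_55_P2036303, chr2:109566961-109567020, plus strand) had signals of 0.26, -0.14 and 0.28 on the IF1-KO arrays, 0.37, 0.11 and 0.08 on the CRL arrays and -0.07, 0.06 and -0.03 on the IF1-TG arrays. All 3 IF1-TG arrays lay below all 3 CRL arrays, by a small margin, and the IF1-KO arrays overlapped both. The IF1-TG minus CRL difference was -0.20 (standard error 0.15, limma adjusted P = 0.729), with a 95% interval from -0.54 to 0.13. Between IF1-TG and IF1-KO it was -0.15 (adjusted P = 0.821), and between IF1-KO and CRL -0.06 (adjusted P = 1.00). Without IF1-KO replicate 1 these were -0.09 and -0.12. With each array left out in turn, IF1-TG minus CRL ranged from -0.26 to -0.11, IF1-TG minus IF1-KO from -0.29 to -0.07 and IF1-KO minus CRL from -0.13 to 0.08. The 1 IF1-TG array that shared a slide with CRL arrays lay 0.28 below their mean (log2 difference -0.28). Bdnf is transcribed from several promoters that all lead to the same coding exon, and the annotation assigns this probe to at least 4 RefSeq forms, so it does not separate promoters.

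Neurotrophin-3 is made in the adult hippocampus mainly by granule cells of the dentate gyrus. Ntf3 (A_55_P2021565, chr6:126051431-126051490, minus strand) had signals of -0.45, -0.88 and -0.29 in IF1-KO, -0.20, -0.36 and -0.25 in CRL and -0.13, -0.42 and -0.74 in IF1-TG mice. The 3 genotypes overlapped, and the CRL arrays lay closest together. The IF1-KO minus CRL difference was -0.27 (standard error 0.20, limma adjusted P = 1.00), and it was -0.31 with IF1-KO replicate 1 omitted and -0.10 with the lowest array, IF1-KO replicate 2, omitted. Against CRL, the IF1-TG difference was -0.16 (adjusted P = 0.852), and it ranged from -0.31 to -0.005 with each array left out in turn. Dentate granule cell markers (6 of 6 tested) were lower in IF1-KO than in CRL mice without a call, with a median of -0.44 on the log2 scale. In IF1-TG against CRL mice 1 of 6 lay above 0, the median was -0.56, and Trpc6, named after its values were seen, was called (-0.80, adjusted P = 0.551). The summed signal of the markers, as a multiple of the 75th percentile, was 2.24 to 6.24 in IF1-KO, 6.14 to 8.18 in CRL and 4.18 to 5.88 in IF1-TG mice. The part of these markers in the Ntf3 values was not tested.

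**Figure D1:**
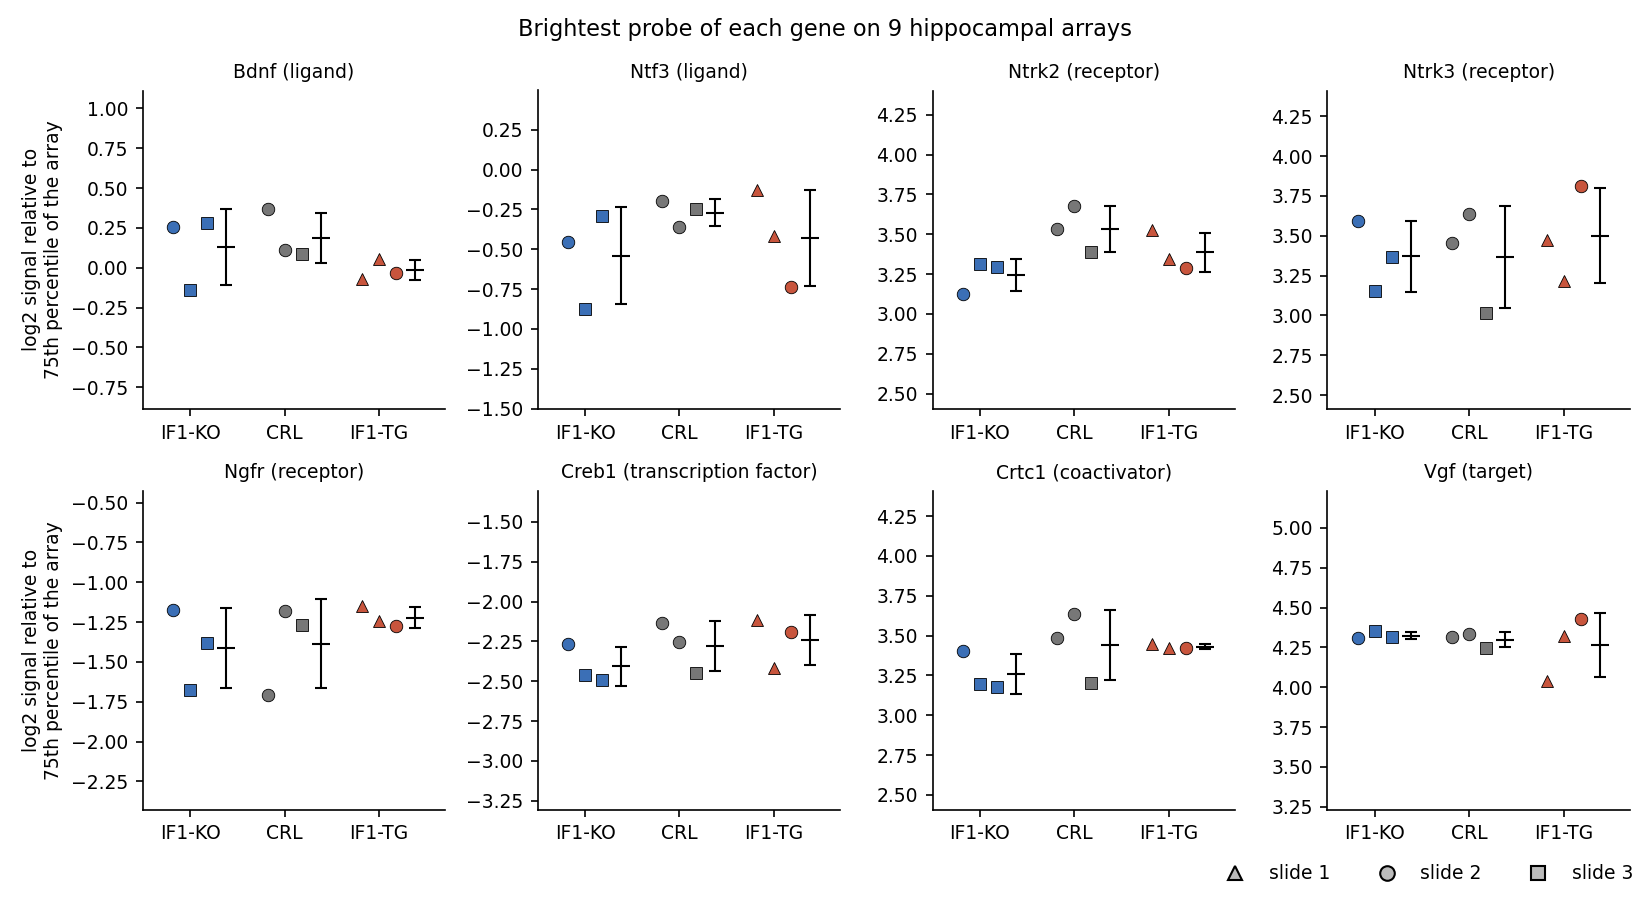
Log2 signal minus the 75th percentile of its array (y axis, each panel spanning the same width of 2 log2 units) for the brightest probe of each of the 8 genes, by genotype (x axis), with 1 point per mouse shaped by slide and the mean ± SD of 3 mice beside it. Genotypes overlap in most panels; the IF1-TG arrays lie below the CRL arrays for Bdnf, the IF1-KO arrays below the CRL arrays for Ntrk2 and below the IF1-TG arrays for Crtc1.

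Among the members with more than 1 probe, TrkB, the receptor of Bdnf, was the one with every probe lower in IF1-KO than in CRL mice. Its 3 differences lay below the fold threshold. Bdnf, Ntf3, Ngfr and Crtc1, with 1 probe each, were lower there too (-0.06, -0.27, -0.03 and -0.18). At the probe for the shared region (A_55_P2006792, printed above), signals were 3.13, 3.31 and 3.29 in IF1-KO, 3.53, 3.68 and 3.39 in CRL and 3.52, 3.34 and 3.29 in IF1-TG mice. Every IF1-KO array lay below every CRL array, and the IF1-TG arrays overlapped both. The IF1-KO minus CRL difference was -0.29 (standard error 0.13, limma adjusted P = 1.00), with an unadjusted P just below 0.05 and too small for the 1.5-fold rule. It was -0.23 without the array labelled IF1-KO replicate 1, -0.48 within slide 2, where that array was the 1 labelled IF1-KO, and -0.09 within slide 3. The unadjusted P rose above 0.05 when IF1-KO replicate 1, or most of the other arrays, was left out. It did so too after normexp with quantile normalization (-0.23), after quantile normalization alone (-0.28) and with slide as a fixed block (-0.28). IF1-TG mice differed from CRL by -0.15 (adjusted P = 0.771) and from IF1-KO by 0.14 (adjusted P = 0.799), or 0.08 without IF1-KO replicate 1.

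The other Ntrk2 probes separate the kinase form from the truncated form, which in adult brain is carried largely by astrocytes and choroid plexus. Probe A_51_P393454, annotated to full-length variant 1 and not to truncated variant 2 (chr13:59230936-59230995, plus strand), is printed as 10 spots per array. Its means over spots were 2.22, 1.84 and 2.20 in IF1-KO, 2.29, 2.34 and 2.11 in CRL and 2.28, 2.42 and 2.59 in IF1-TG mice. All IF1-TG arrays lay above all IF1-KO arrays, and the CRL arrays lay among both. The IF1-TG minus IF1-KO difference was 0.34 (standard error 0.15, limma adjusted P = 0.699), with an unadjusted P just below 0.05. It was 0.41 with the array labelled IF1-KO replicate 1 left out and 0.22 without IF1-KO replicate 2, the lowest array. The unadjusted P rose above 0.05 with IF1-KO replicate 2 or most other arrays left out. It did so too after normexp with quantile normalization (0.36), after quantile normalization alone (0.31) and with slide as a fixed block (0.37).

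Probe A_65_P04961, annotated to truncated variant 2 (chr13:59038046-59038105, plus strand), had signals of 1.61, 1.73 and 1.52 in IF1-KO, 1.77, 1.76 and 1.87 in CRL and 1.65, 1.75 and 1.54 in IF1-TG mice. The CRL arrays lay above all arrays of both other genotypes, though barely. The differences from CRL were -0.18 for IF1-KO (standard error 0.11, limma adjusted P = 1.00) and -0.15 for IF1-TG (adjusted P = 0.734). The within-array log2 ratio of the full-length to the truncated probe was 0.34 higher in IF1-TG than in CRL mice (exact permutation P = 0.10, two-sided, the smallest value that 3 against 3 arrays can give). That value was 0.30 after Benjamini-Hochberg adjustment over the 18 such probe pairs and comparisons, and the ratio differed by 0.02 between IF1-KO and CRL mice (exact permutation P = 0.90). Choroid plexus markers (7 of 7 tested) had positive IF1-TG minus IF1-KO differences without a call, at a median of 0.88, and their summed signal ranged from 2.07 to 96.4 in IF1-KO, from 3.03 to 119 in CRL and from 4.90 to 183 in IF1-TG mice. Summed astrocyte markers ranged from 173 to 186 in IF1-KO, from 169 to 193 in CRL and from 191 to 233 in IF1-TG mice. The part of either cell type in the Ntrk2 values was not tested.

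TrkC, the receptor of neurotrophin-3, had 4 probes that did not move together. At the C-terminal kinase probe (A_66_P118329), signals were 3.59, 3.15 and 3.37 in IF1-KO, 3.45, 3.64 and 3.01 in CRL and 3.47, 3.22 and 3.81 in IF1-TG mice. The 3 genotypes overlapped throughout, and all 3 differences were 0.13 or less with adjusted limma P values of 0.893 to 1.00. Without IF1-KO replicate 1, the IF1-TG minus IF1-KO difference was 0.24 and the IF1-KO minus CRL difference -0.11. The kinase loop probe (A_55_P2056533) had 1.10, 0.92 and 1.09 in IF1-KO, 0.55, 0.80 and 0.92 in CRL and 0.76, 0.99 and 1.19 in IF1-TG mice. Here the IF1-KO arrays lay above the CRL arrays, barely so at the nearest pair, with a difference of 0.28 (standard error 0.15, adjusted P = 1.00).

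The truncated form of TrkC was read by 2 probes, and only the one in the coding tail separated genotypes. At that probe (A_55_P2006808) signals were 0.50, -0.93 and 0.34 in IF1-KO, -0.13, -0.07 and -0.02 in CRL and 0.67, 0.33 and 0.89 in IF1-TG mice. The IF1-TG arrays lay above all CRL arrays, and IF1-KO replicate 2 stood far below every other array. The IF1-TG minus CRL difference was 0.71 (standard error 0.34, limma adjusted P = 0.625), past the fold threshold but not the unadjusted P threshold, and it was 1.00 within slide 2. Leaving out IF1-KO replicate 2, which enters this comparison only through the shared spread, gave the same difference with a smaller standard error (0.16) and a call (adjusted P = 0.483). It was also called in a fit of these 2 genotypes alone (0.71, adjusted P = 0.721) and after normexp with quantile normalization (0.80, adjusted P = 0.730). The IF1-TG minus IF1-KO difference was 0.66 (adjusted P = 0.717, not called), and 0.93 (adjusted P = 0.652, called) with IF1-KO replicate 1 omitted. It was 0.21 when the lowest array, IF1-KO replicate 2, was omitted (adjusted P = 0.998). Its within-genotype SD of 0.48 was larger than that of 87.4% of all kept probes.

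The other probe of the truncated form (A_52_P500274, chr7:85445908-85445967, minus strand) had 1.48, 1.90 and 2.02 in IF1-KO, 1.70, 1.76 and 2.04 in CRL and 2.12, 1.91 and 1.66 in IF1-TG mice. The genotypes overlapped and the IF1-TG minus CRL difference was 0.07 (adjusted P = 0.947), so the 2 probes of this form disagreed. The log2 ratio of the C-terminal kinase probe to the coding-tail probe was 0.57 lower in IF1-TG than in CRL mice (difference -0.57, exact permutation P = 0.10, adjusted 0.30). With the other truncated probe in its place the difference of ratios was 0.07 (exact permutation P = 1.0).

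**Figure D2:**
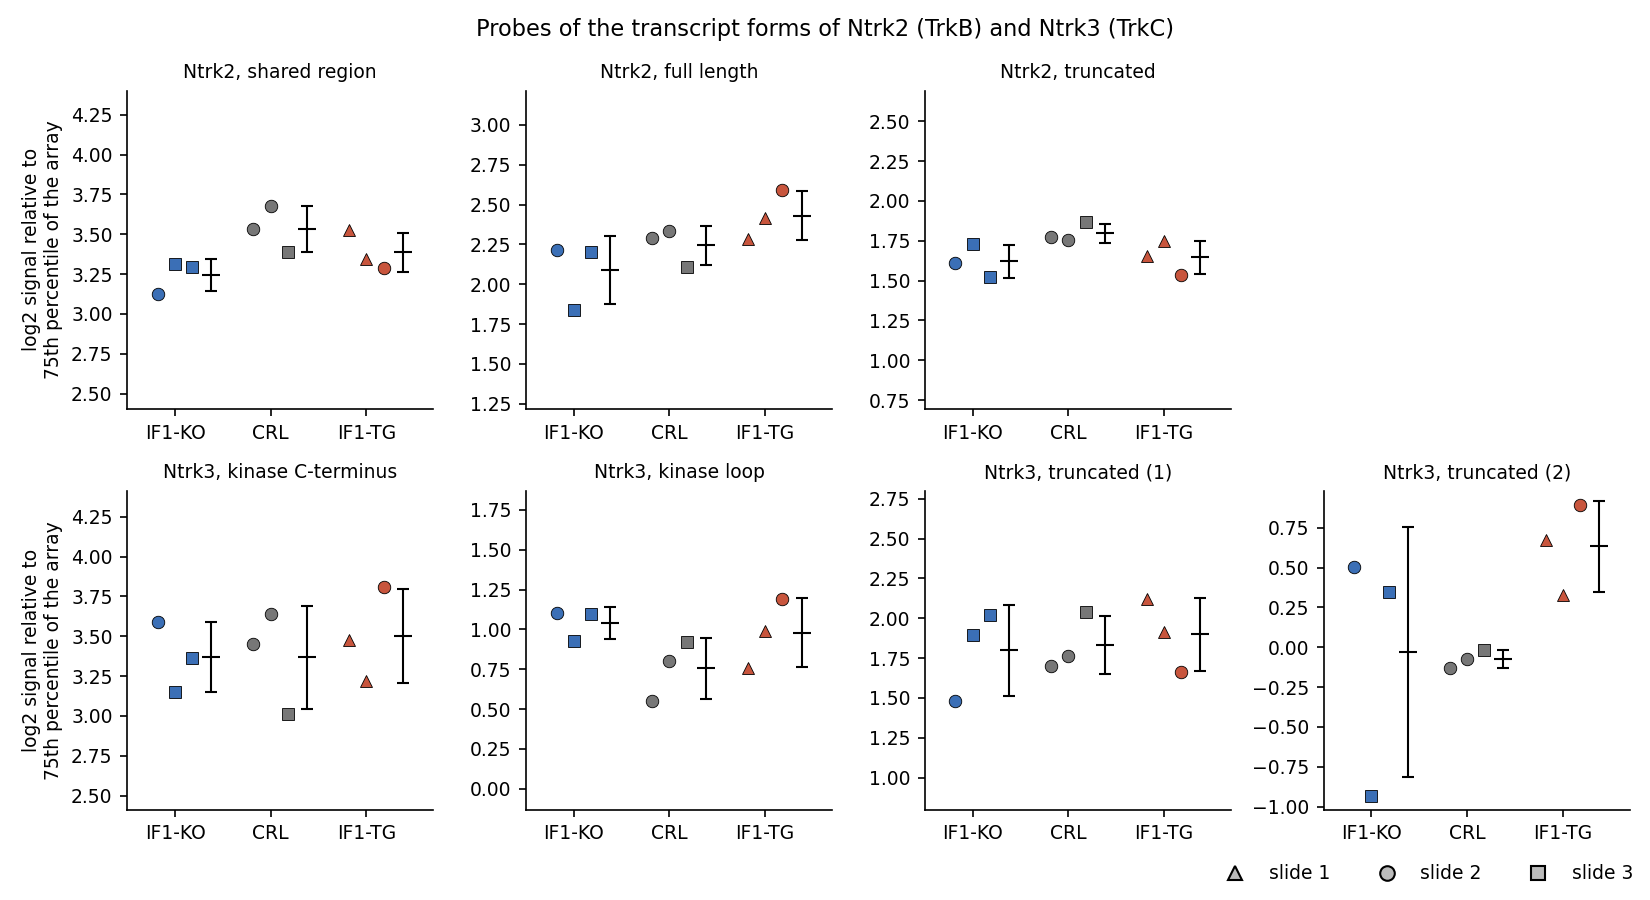
Log2 signal minus the 75th percentile of its array (y axis, 2 log2 units per panel) for the 3 Ntrk2 and 4 Ntrk3 probes, grouped by the transcript form each is annotated to, by genotype (x axis). Points are mice shaped by slide, and bars are the mean ± SD of 3 mice; truncated (1) is A_52_P500274 and truncated (2) is A_55_P2006808, where the IF1-TG arrays lie above the CRL arrays and IF1-KO replicate 2 lies lowest at -0.93.

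The p75 receptor, which binds all neurotrophins and their precursors, was not called in any comparison. Ngfr (A_52_P236448, 10 spots, chr11:95430211-95430270, minus strand) had signals of -1.17, -1.68 and -1.38 in IF1-KO, -1.71, -1.18 and -1.27 in CRL and -1.15, -1.25 and -1.27 in IF1-TG mice. The genotypes overlapped, and the IF1-TG arrays lay closest together (SD 0.07, n = 3). The differences were 0.19 for IF1-TG minus IF1-KO (95% interval -0.22 to 0.60, limma adjusted P = 0.809), 0.16 for IF1-TG minus CRL (adjusted P = 0.831) and -0.03 for IF1-KO minus CRL (adjusted P = 1.00). Without IF1-KO replicate 1, the IF1-TG minus IF1-KO difference was 0.31 (adjusted P = 0.699) and the IF1-KO minus CRL difference -0.15. With each array left out in turn, IF1-TG minus IF1-KO ranged from 0.06 to 0.31 and IF1-TG minus CRL from 0.001 to 0.26.

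CREB itself gave the only call among the 14 probes, and its 2 probes did not move together. The brighter Creb1 probe (A_55_P2114427, chr1:64651061-64651120, plus strand) had signals of -2.27, -2.46 and -2.49 in IF1-KO, -2.13, -2.25 and -2.45 in CRL and -2.12, -2.42 and -2.19 in IF1-TG mice. The genotypes overlapped, and the differences were 0.16 for IF1-TG minus IF1-KO (limma adjusted P = 0.788), 0.04 for IF1-TG minus CRL (adjusted P = 0.961) and -0.13 for IF1-KO minus CRL (adjusted P = 1.00), or -0.20 without IF1-KO replicate 1.

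The dimmer Creb1 probe (A_52_P517730, chr1:64644633-64644692, plus strand), annotated to the same RefSeq transcripts, had -4.60, -5.08 and -5.03 in IF1-KO, -5.48, -5.94 and -5.12 in CRL and -5.63, -5.42 and -5.38 in IF1-TG mice. This probe was brighter than 12.5% of all kept probes, against 42.4% for the other Creb1 probe. All IF1-KO arrays lay above all arrays of the other genotypes. The IF1-KO minus CRL difference was 0.61 (standard error 0.22, limma adjusted P = 1.00), the 1 member probe called where 1.07% of all kept probes were called. It was 1.10 within slide 2, where IF1-KO replicate 1 was the only knockout array by label, and 0.07 within slide 3. The call was lost on leaving out IF1-KO replicate 1, as labelled (0.46, adjusted P = 0.982), or CRL replicate 2 (0.40, adjusted P = 1.00). After normexp correction of the background and quantile normalization it was 0.24 (adjusted P = 0.996), and with slide as a fixed block it was 0.59 (adjusted P = 1.00), neither of them below the unadjusted threshold. The IF1-TG minus IF1-KO difference at this probe was -0.58 (adjusted P = 0.681), past the unadjusted P threshold and just short of the fold threshold. Without IF1-KO replicate 1 it was -0.43 (adjusted P = 0.686), past neither.

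**Figure D3:**
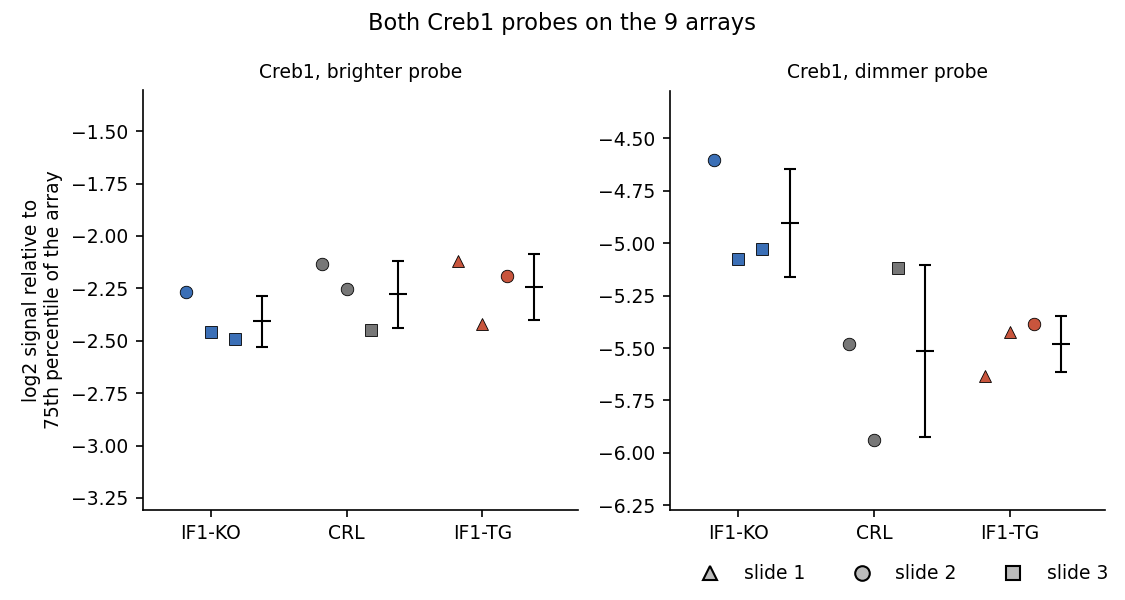
Log2 signal minus the 75th percentile of its array (y axis, 2 log2 units per panel) of the 2 Creb1 probes by genotype (x axis), with mice as points shaped by slide and the mean ± SD of 3 mice beside them. At the dimmer probe the IF1-KO mean lies 0.61 above CRL, with the highest IF1-KO and the lowest CRL array both on slide 2; at the brighter probe it lies 0.13 below (log2 difference -0.13).

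Crtc1, the coactivator that moves from synapse to nucleus and joins CREB after calcium and cAMP signals, was measured at A_55_P2112170 (chr8:72906260-72906319, minus strand). Signals were 3.40, 3.20 and 3.18 in IF1-KO, 3.49, 3.64 and 3.20 in CRL and 3.45, 3.42 and 3.42 in IF1-TG mice. The IF1-TG arrays lay close together (SD 0.02, n = 3) and above all IF1-KO arrays, while the CRL arrays overlapped both. The differences were 0.17 for IF1-TG minus IF1-KO (standard error 0.14, limma adjusted P = 0.775), -0.01 for IF1-TG minus CRL (adjusted P = 0.991) and -0.18 for IF1-KO minus CRL (adjusted P = 1.00). On slide 2, the IF1-TG array lay 0.02 above the array labelled IF1-KO replicate 1.

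Vgf, a secretory peptide precursor driven by CREB and Bdnf, varied little, with a within-genotype SD of 0.12, larger than that of 14.2% of all kept probes. At A_55_P2085060 (chr5:137509153-137509212, plus strand) it had 4.31, 4.35 and 4.32 in IF1-KO, 4.31, 4.34 and 4.24 in CRL and 4.04, 4.32 and 4.42 in IF1-TG mice. The genotypes overlapped, and the IF1-TG arrays held both the lowest and the highest value. The differences were -0.06 for IF1-TG minus IF1-KO (95% interval -0.34 to 0.22), -0.04 for IF1-TG minus CRL (-0.32 to 0.25) and 0.03 for IF1-KO minus CRL (-0.26 to 0.31), with adjusted limma P values of 0.915, 0.956 and 1.00.

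Between IF1-TG and IF1-KO mice, 0 of 8 genes were called on the brightest probe, where 3.71% of 21906 genes were. The members' median log2 difference was 0.14, with 6 of 8 above 0, and that of all genes was 0.01. It was 0.05 with slide as a fixed block, 0.04 when IF1-KO replicate 2 was omitted and 0.09 when IF1-TG replicate 1 was. Between IF1-TG and CRL mice, 0 of 8 were called (all genes, 4.31%), with a median of -0.02 and 3 of 8 above 0; the median was -0.10 without CRL replicate 3 and 0.02 without CRL replicate 2. Between IF1-KO and CRL mice, 0 of 8 were called (all genes, 1.02%), with a median of -0.09 and 2 of 8 above 0, and 1 gene, Ntrk2, had an unadjusted P below 0.05. That median was -0.17 without IF1-KO replicate 1, -0.04 without replicate 2, -0.19 without CRL replicate 3 and -0.02 with slide as a fixed block. By an unadjusted P below 0.05 alone the share of all genes was 6.91%, 8.07% and 2.57% in the 3 comparisons, in the order given here. Among the 14 probes, 0, 0 and 1 were called, against 3.80%, 4.47% and 1.07% of all kept probes. At these background rates the members' counts lie near the background. In each comparison the arrays of the 2 genotypes did not overlap at 1 of 8 brightest probes (Crtc1, Bdnf and Ntrk2, respectively), against 13.5%, 12.0% and 7.97% of all genes.

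The 95% interval lay inside 1.5-fold in both directions for 6 of 8 genes in the IF1-TG minus IF1-KO comparison, 6 of 8 between IF1-TG and CRL mice and 7 of 8 between IF1-KO and CRL mice. Taking all 8 together, the intervals reached from 0.714-fold to 1.54-fold, from 0.657-fold to 1.54-fold and from 0.608-fold to 1.41-fold, respectively. Ntf3 and Ntrk3 had the widest intervals, and Vgf and Ntrk2 the narrowest.

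**Figure D4:**
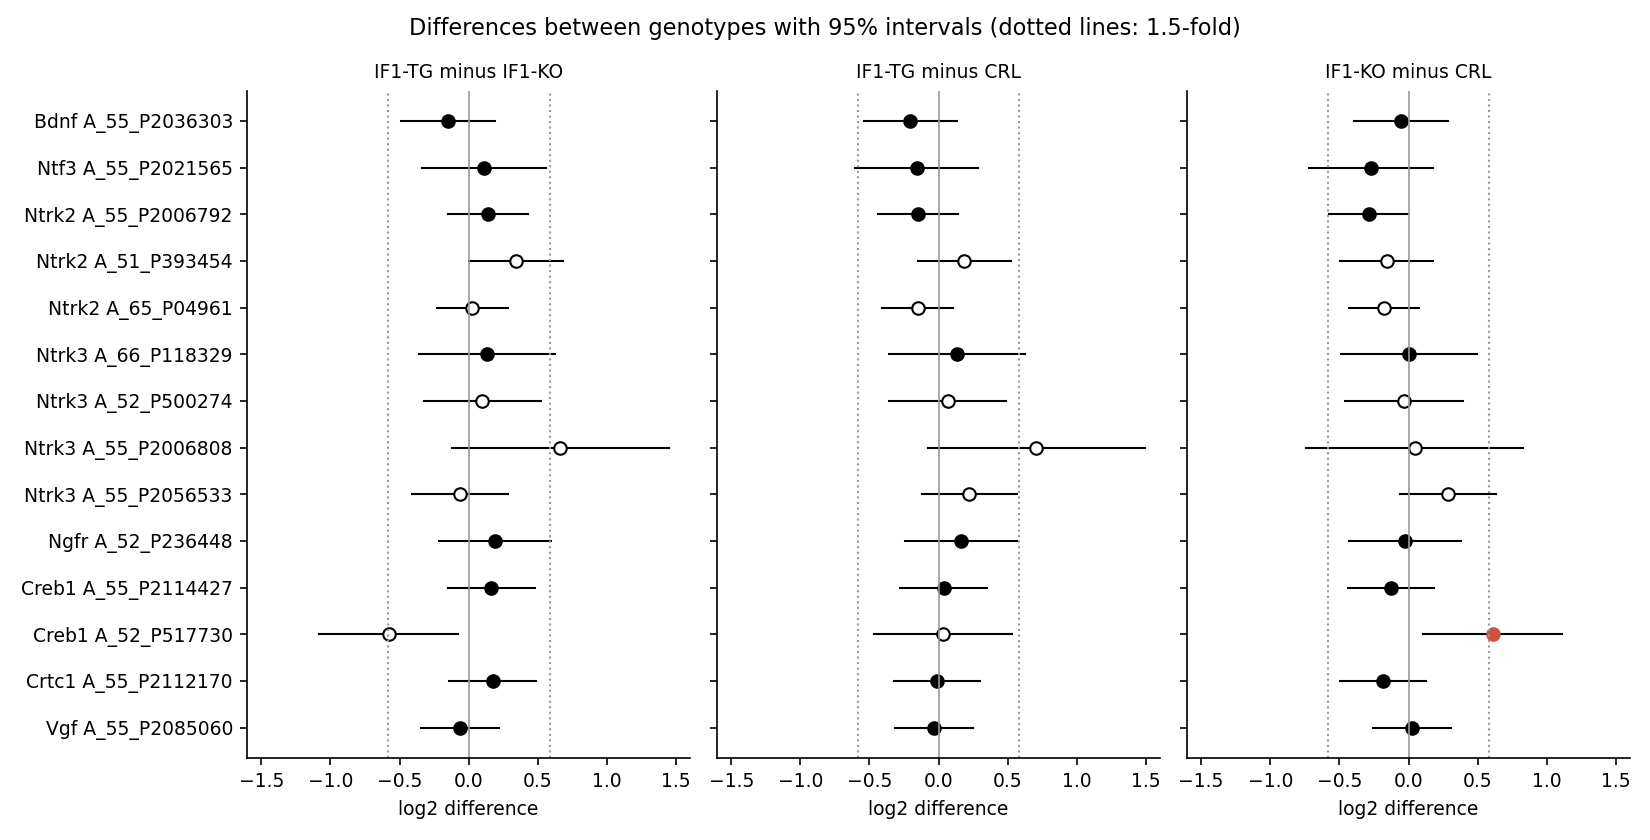
Log2 difference between genotypes (x axis) with its 95% interval for the 14 probes (y axis), from a limma fit of all 9 arrays; filled black points are the brightest probe of a gene, open points the other probes, the red point a call, and dotted lines mark 1.5-fold. All black points lie between -0.29 and 0.19; the dimmer Creb1 probe between IF1-KO and CRL mice is the 1 call.

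Around these 8 genes, lists of other pathway genes were counted on the brightest probe in the same fit. Over all genes, 3.71% were called between IF1-TG and IF1-KO, 4.31% between IF1-TG and CRL and 1.02% between IF1-KO and CRL mice. In lists of 8 to 23 tested genes, a count of 0 or 1 lies near these shares. Of the other ligands and the proteases that process proneurotrophins (8 of 10 tested), 0 were called in any comparison. Of the other receptors and p75 partners (9 of 11 tested), likewise 0 were called. Below the fold threshold, 4 list genes that were not called in any comparison had an unadjusted P below 0.05, and they are named after their values were seen. By that P alone, 6.91% of all genes passed between IF1-TG and IF1-KO, 8.07% between IF1-TG and CRL and 2.57% between IF1-KO and CRL mice. Pcsk1, a prohormone convertase, differed in IF1-TG mice by -0.43 from IF1-KO (adjusted P = 0.661) and by -0.38 from CRL (adjusted P = 0.551). Crebbp, the histone acetyltransferase that binds phosphorylated CREB, differed by 0.39 from IF1-KO (adjusted P = 0.670) and by 0.38 from CRL (adjusted P = 0.551). Rps6ka2, a ribosomal S6 kinase, differed by 0.36 between IF1-TG and IF1-KO mice (adjusted P = 0.685), and Rtn4r, the Nogo receptor, by -0.58 between IF1-KO and CRL mice (adjusted P = 1.00).

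Among Trk adaptors and signalling proteins (19 of 20 tested) 1 gene, Irs2, was called, in 2 comparisons. Of all genes, 3.71% were called between IF1-TG and IF1-KO and 4.31% between IF1-TG and CRL mice. Irs2 encodes an insulin receptor substrate that also takes part in Trk signalling. Its signals were 2.43, 1.73 and 2.44 in IF1-KO, 2.33, 2.54 and 1.98 in CRL and 2.80, 2.71 and 3.13 in IF1-TG mice, so that every IF1-TG array lay above every other array. It rose in IF1-TG mice by 0.68 against IF1-KO (standard error 0.23, limma adjusted P = 0.661) and by 0.59 against CRL (adjusted P = 0.560). Against IF1-KO the call was lost without IF1-KO replicate 2 (0.45) and without replicate 3 of IF1-TG (0.56), with slide as a fixed block (0.67, adjusted P = 0.789) and after normexp with quantile normalization (0.55). Against CRL it was lost without either of CRL replicates 1 (0.62) and 3 (0.44) or of IF1-TG replicates 1 (0.63) and 3 (0.47). The call against CRL was also lost after normexp with quantile normalization (0.39, adjusted P = 0.789) and with replicate number as a block (0.59, adjusted P = 0.653).

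In the CREB family with its coactivators and kinases (17 of 17 tested), 1 gene was called, Crtc2, a coactivator related to Crtc1. The call was between IF1-TG and IF1-KO mice, where 3.71% of all genes were called. The Crtc2 signals were -0.55, 0.20 and 0.08 in IF1-KO, 0.64, 0.56 and 0.09 in CRL and 0.65, 0.54 and 0.40 in IF1-TG mice, and the IF1-TG arrays lay above the IF1-KO arrays. Its IF1-TG minus IF1-KO difference was 0.62 (standard error 0.22, limma adjusted P = 0.668). The lowest array was the one labelled IF1-KO replicate 1, and without it the difference was 0.39 (adjusted P = 0.668), past neither threshold. Leaving out IF1-TG replicate 1 (0.56) or 2 (0.61) also ended the call, as did slide as a fixed block (0.55, adjusted P = 0.904) and normexp with quantile normalization (0.45, adjusted P = 0.758). The other Crtc2 probe gave -0.06 (adjusted P = 0.897), so the 2 probes disagreed.

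Activity-regulated genes, many of them targets of CREB, were, of the 5 pathway lists, the one with the median farthest from 0 in both IF1-TG comparisons. Of 23 tested (of 25), 6 had a positive IF1-TG minus IF1-KO difference and 4 a positive IF1-TG minus CRL difference, with a median of -0.35 both times. Of the 23, 0 and 1 were called, against 3.71% and 4.31% of all genes. Between IF1-KO and CRL mice the median was -0.02 and 1 was called (all genes, 1.02%). Summed signals of the list overlapped between genotypes, at 93.2 to 140 in IF1-KO, 105 to 147 in CRL and 72.5 to 121 in IF1-TG mice. Replicate 2 was the highest array of each genotype for Fos, Arc, Egr1, Junb, Npas4 and Nr4a1, immediate early genes named after their values were seen. For Fos the signals were -0.94, 0.03 and -2.71 in IF1-KO, -0.99, 0.29 and -2.48 in CRL and -3.52, -1.03 and -1.96 in IF1-TG mice. Whether the replicate number marks a shared day or handling is not given by the labels. Slide 1 held IF1-TG arrays alone, so there the slide cannot be told apart from the genotype.

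The called gene of that list was Pdyn, the precursor of the dynorphin opioid peptides, found in the hippocampus mainly in dentate granule cells. Its signals were -0.12, 0.90 and 0.69 in IF1-KO, 1.75, 1.33 and 1.75 in CRL and 0.37, 0.12 and 0.59 in IF1-TG mice, and all CRL arrays lay above all others. It fell by 1.12 on the log2 scale in IF1-KO (standard error 0.27, limma adjusted P = 1.00) and fell by 1.25 in IF1-TG mice (adjusted P = 0.367), each against the same CRL arrays. The lowest IF1-KO array was the one labelled replicate 1, and without it the IF1-KO minus CRL difference was -0.81. In the summed dentate granule cell markers given with Ntf3, the IF1-TG arrays lay below the CRL arrays, and the IF1-KO arrays overlapped them. Striatum markers had 0 of 5 genes above 0 against CRL in both IF1-KO (median -0.41) and IF1-TG mice (median -0.37). Of them 1, Adora2a, named after its values were seen, was called lower in both (-1.16 and -0.96). Their summed signal overlapped, at 6.69 to 7.89 in IF1-KO, 7.61 to 12.2 in CRL and 6.54 to 12.3 in IF1-TG mice. The part of either marker list in the Pdyn values was not tested. Both Pdyn calls held in every alternative fit and with any array left out, but not after Benjamini-Hochberg adjustment.

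**Figure D5:**
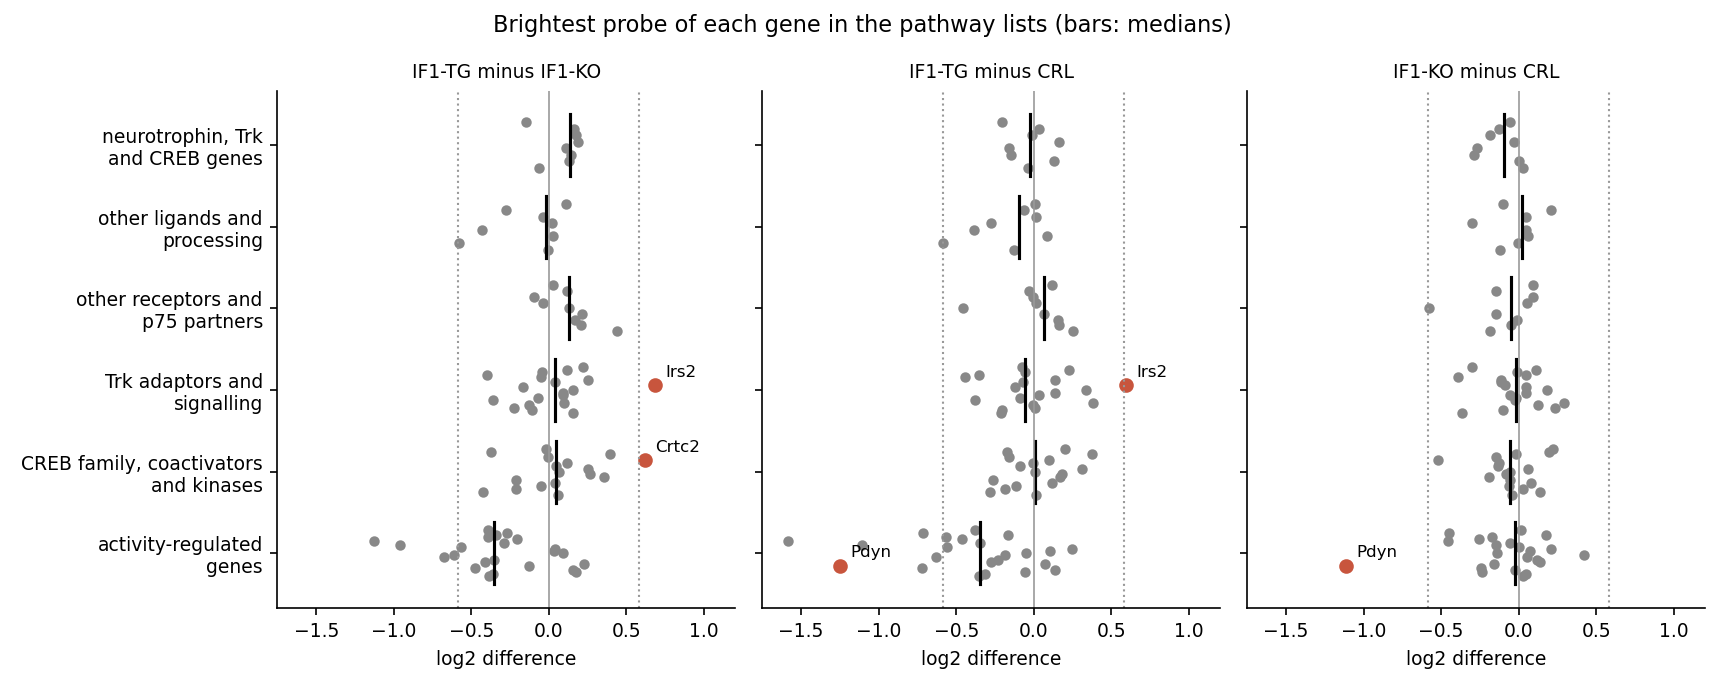
Log2 differences between genotypes (x axis) at the brightest probe of each gene, in 6 lists (y axis, 1 point per gene, spread vertically for legibility), for the 3 comparisons; black bars are list medians, red named points are calls, and dotted lines mark 1.5-fold. The median of the activity-regulated genes lies at -0.35 in both comparisons of IF1-TG mice, with 6 and 4 of 23 genes above 0 against IF1-KO and CRL, and no point of the 8 neurotrophin, Trk and CREB genes is red.

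The 8 genes did not vary together across the 9 arrays. Pearson correlations of their brightest probes over 28 pairs ranged from -0.66 (Ntf3 with Vgf) to 0.76 (Creb1 with Crtc1), described here without a test, since arrays share slides and a common scaling. Ntrk3 also ran with Creb1 (0.71) and Crtc1 (0.66), and Ntrk2 with Crtc1 (0.59). Bdnf and its receptor gene Ntrk2 gave -0.02. Among 21651 other genes, those most alike were Gm20754 and Dpf3 for Bdnf, Hist1h2be and Tmprss6 for Ntf3, Unc45b and Lmcd1 for Ntrk2, Rimbp2 and the unnamed A_55_P2010539 for Ntrk3, Tmem57 and Abl1 for Ngfr, Rplp1 and Zcchc17 for Creb1, the unnamed A_66_P135694 and Cstf2t for Crtc1, and Pck2 and Tbl3 for Vgf, with correlations of 0.93 to 0.98 over 9 arrays. These are the highest values among many genes and so few arrays.

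CREB binds the palindrome TGACGTCA or its shorter core TGACG, and the promoters of the members were searched for both, on both strands, in RefSeq windows of GRCm38.p6 that run from 250 bases before to 50 after each start. Entries were found for 6 of the 8 genes, 13 windows in all, 7 of them for Bdnf; Ntrk3 and Vgf were not matched. None of the 13 held the full palindrome, which 1.79% of 32851 promoters hold. The core, which every full palindrome also contains, was in 1 Bdnf window and in 20.8% of all promoters. That site lies 35 to 31 bases before the start, read as CGTCA on the plus strand, and is shown in capitals in the 100 bases before this start (chr2:109692336-109692435, GRCm38.p6), the Bdnf window in which a CREB motif was found.
Bdnf promoter: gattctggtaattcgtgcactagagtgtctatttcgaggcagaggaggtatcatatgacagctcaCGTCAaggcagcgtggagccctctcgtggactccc
A match is a description of these letters only, and the Bdnf probe does not separate transcripts from this start from the others.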

How the data were processed

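Hippocampal RNA of 9 mice was hybridized to one-colour Agilent arrays, 1 mouse per array. The authors deposited spot intensities of Feature Extraction 10.7.3.1, background-subtracted within each array and not normalized between arrays; the mean and local background intensities, also deposited, served an alternative. Marks for spots well above background and for outliers were taken from the deposited columns, and 0 spots were saturated. Probe positions (mm9) come from the array annotation. Genotype, replicate and age come from the labels, and slide from the array identifiers. Nothing in the labels says that the mice of a genotype came from separate litters, so P values measure the spread between these mice.

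From the log2 of the processed intensity, each array's 75th percentile over non-control, non-outlier spots was subtracted. Spots of a probe were averaged, and a probe was kept if any genotype had it well above background on its 3 arrays. All 9 arrays entered 1 linear model with genotype in limma 3.58.1 (R 4.3.3) with eBayes. Benjamini-Hochberg adjustment ran over all kept probes of a comparison. Intervals are at 95%. The fit was tested on simulated data with known shifts. Replicates of a genotype correlated at 0.983 to 0.992, and the number of arrays limits the precision. The members and gene lists were chosen with earlier results of these data known. Genes named are the 8 members, genes of the pathway lists past both thresholds, Atpif1, and for each member the 2 genes most alike over the arrays; others are named as chosen after their values were seen. Within-array ratios of probes were compared by exact permutation tests. Alternatives were normexp (offset 50) with quantile normalization, quantile normalization, no filter or a filter on all 9 arrays, slide as fixed or random block, replicate number as a block, fits of 2 genotypes at a time, a trended and robust eBayes, averages over the probes of a gene, other call rules, and each array left out in turn. Some genes of the pathway lists are not reported by name here. Promoter windows are RefSeq entries; no genome was used.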

Additional observations from a re-analysis of the deposited data

How the results depend on the processing

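The count of the 8 genes called was 0 in each comparison under every alternative fit and with any array left out, and also after Benjamini-Hochberg adjustment; by an unadjusted limma P below 0.05 alone it was 1 (Ntrk2) between IF1-KO and CRL mice and 0 otherwise. The members' median log2 difference moved by less than its spread between replicates (SD 0.12) in all alternatives. The medians themselves were 0.14, -0.02 and -0.09, so staying within that SD does not show that they were stable. With an array left out it ranged from 0.04 to 0.19 for IF1-TG minus IF1-KO, from -0.10 to 0.02 for IF1-TG minus CRL and from -0.19 to -0.04 for IF1-KO minus CRL. Of 780 alternative values of the 14 probes, 51 had the other sign and 13 another call, all 13 at the dimmer Creb1 probe or the Ntrk3 coding-tail probe. For IF1-TG minus IF1-KO, the dimmer Creb1 probe gained a call without replicates 2 (-0.67) or 3 (-0.64) of IF1-KO or replicates 2 (-0.61) or 3 (-0.63) of IF1-TG.

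Counts of called list genes changed as follows, beside changes over all genes. The main fit called 813, 945 and 224 of 21906 genes (IF1-TG minus IF1-KO, IF1-TG minus CRL, IF1-KO minus CRL). In that order normexp with quantile normalization called 443, 437 and 127 of 21906, and no filter 2537, 3681 and 570 of 31093. Slide as a fixed block gave 1050, 1588 and 186 of 21906, and as a random block 717, 922 and 213. The mean of a gene's probes gave 760, 887 and 216. Normexp with quantile normalization gave 0 Trk adaptors in both IF1-TG comparisons, 0 CREB family genes for IF1-TG minus IF1-KO and 1 receptor or p75 partner between IF1-KO and CRL mice. Without a filter on dim probes, 2 Trk adaptors were called for IF1-TG minus IF1-KO, and 2 receptors or p75 partners between IF1-TG and CRL and between IF1-KO and CRL mice. With slide as a fixed block, 0 Trk adaptors were called between IF1-TG and IF1-KO, 2 Trk adaptors and 1 CREB family gene between IF1-TG and CRL, and 1 receptor or p75 partner and 2 activity-regulated genes between IF1-KO and CRL mice; with slide as a random block, 1 receptor or p75 partner was called there. The mean of a gene's probes gave 0 CREB family genes for IF1-TG minus IF1-KO. By P below 0.05 alone, 1 ligand or processing gene was counted in both IF1-TG comparisons, 3, 1 and 1 CREB family genes in IF1-TG minus IF1-KO, IF1-TG minus CRL and IF1-KO minus CRL, and 1 receptor or p75 partner between IF1-KO and CRL mice. Over all genes that rule counted 1513, 1767 and 562 of 21906. With limma P values adjusted by Benjamini-Hochberg, 0 genes of any list were called. With an array left out, the list counts lay between 0 and 1, except 0 to 2 Trk adaptors and 1 to 2 activity-regulated genes between IF1-TG and CRL mice. Over all genes, those fits called 485 to 1299, 757 to 1469 and 140 to 774 genes in the same order of comparisons.

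Nothing in the labels says that replicate numbers pair the mice. Over all kept probes, deviations of same-numbered arrays correlated at -0.17 to 0.12, and 0 of 9 arrays deviated most like an array of its own number, although 6 immediate early genes were highest on replicate 2 of each genotype. With the replicate block, 0 of the 8 genes were called in each comparison, 1 activity-regulated gene was called for IF1-TG minus IF1-KO, 0 Trk adaptors were called between IF1-TG and CRL mice, and the Ntrk3 coding-tail probe was called between IF1-TG and CRL mice (0.71, limma adjusted P = 0.641). Over all genes that block gave 820 calls for IF1-TG minus IF1-KO and 902 for IF1-TG minus CRL, of 21906.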
